A study of Mus musculus with 6 samples.

Results

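The genes described here are the 10 listed genes of the WAVE complex, Cyfip1, Cyfip2, Nckap1, Nckap1l, Wasf1, Wasf2, Wasf3, Abi1, Abi2 and Brk1. They were found by symbol in the deposited table of 34718 genes. All 10 had a row and 8 of them were among the 11975 genes with enough counts to test. Cyfip2 gives the group its name because it was lower after Zfp207 knockdown, and it was chosen from that same comparison. Its difference between the groups is therefore described without a test. The other genes were listed for their place in the complex.

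The samples were Hepa1-6, a mouse hepatoma cell line grown in culture and labelled as a hepatocellular carcinoma line. Of the 6 libraries, 3 were titled shNC and labelled control, and 3 were titled shZfp207 and labelled Zfp207 knockdown. RNA was sequenced from total RNA, and reads were counted per gene. Neither the number of hairpins nor whether replicates were separate cultures is given in the labels, so hairpin effects and Zfp207 loss cannot be told apart, and the p-values speak only for the spread among these libraries, which may be technical. In what follows shNC cells are called control and shZfp207 cells knockdown.

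The WAVE complex drives the branched actin networks that push out lamellipodia. It holds a single subunit from each of the CYFIP, NCKAP, WASF (WAVE), ABI and BRK1 families. In its resting state it keeps the WASF subunit inactive, and when the small GTPase Rac binds the CYFIP subunit, WASF is released and activates the Arp2/3 complex, which starts new actin branches. CYFIP proteins are also known as partners of the RNA-binding protein FMRP. Cyfip1 and Cyfip2 encode alternative subunits for the same position of the complex. Cyfip2 is known chiefly from brain and blood cells and was also described as a p53-inducible gene, while Nckap1l (Hem1) is the NCKAP subunit of blood cells.

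Because Cyfip1 and Cyfip2 are paralogs, their coding sequences were compared first, to see whether reads of each can be told from reads of the other. Their longest coding sequences in GENCODE M21 were 77.8% identical over 3756 aligned bases. The longest run of bases that any of their transcripts share was 24 bases, and 0 of the 7146 distinct 50-base stretches of Cyfip2 transcripts occurred in Cyfip1. The lines below show the 120 bases of coding sequence around that longest run, with the differing bases in capitals, 24 in each. Both are written 5′ to 3′ on the sense strand (mm10). The Cyfip1 stretch lies in exons 11 and 12 of the transcript used (chr7:55886801-55887924, plus strand) and the Cyfip2 stretch in exons 10 and 11 (chr11:46270567-46272625, minus strand), the coordinates spanning the intron between them.
Cyfip1: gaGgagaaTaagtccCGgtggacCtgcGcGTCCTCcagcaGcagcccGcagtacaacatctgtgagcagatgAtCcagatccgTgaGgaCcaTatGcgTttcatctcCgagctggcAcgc
Cyfip2: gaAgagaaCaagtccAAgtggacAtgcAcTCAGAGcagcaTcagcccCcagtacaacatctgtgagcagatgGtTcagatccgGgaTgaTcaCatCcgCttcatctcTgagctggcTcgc
The uninterrupted match, cagtacaacatctgtgagcagatg, is bounded by differences on both sides. The other paralog pairs were further apart, with longest shared runs of 23 bases between Abi1 and Abi2 and 17 bases between Nckap1 and Nckap1l and between any pair of Wasf1, Wasf2 and Wasf3. The labels used here give no read length.

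Cyfip2 was lower in all 3 knockdown libraries than in any control. It lies on the minus strand of chromosome 11 from 46193850 to 46312859 (ENSMUSG00000020340, mm10), and its exons overlap no other gene of the annotation. It had 151, 231 and 282 counts in control replicates 1 to 3 and 12, 17 and 15 counts in knockdown replicates 1 to 3. Per 1000000 counts of the library (CPM) these were 12.7, 15.8 and 17.4 in control and 0.788, 1.13 and 1.02 in knockdown cells. The control libraries thus lie within a narrow range, and the knockdown libraries form a second, far lower group. The exact 95% counting intervals of the knockdown libraries together ran from 0.407 to 1.81 CPM, above 0, so a remnant of the transcript was counted in each. After scaling between libraries the knockdown mean was 6.47% of the control mean (log2 fold change -3.94, SE 0.226), while Zfp207, the targeted gene, kept 25.9% of its control level. Among the 10883 tested genes with a mean of at least 2 CPM, Cyfip2 had the second most negative log2 fold change (rank 2). With each library left out in turn its log2 fold change stayed between -4.07 and -3.80.

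Cyfip1, the paralog that shares the CYFIP position, did not pass the test. Its gene spans 55841745 to 55932602 on chromosome 7, plus strand (ENSMUSG00000030447), and antisense genes, Nipa2 among them, cover at most 12.5% of its exonic bases. Its control replicates 1 to 3 stood at 137.3, 246 and 252.4 CPM and its knockdown replicates 1 to 3 at 222.4, 223.6 and 222 CPM. The knockdown libraries were within 2 CPM of each other and lay between control replicate 1 and the other controls. The log2 fold change was 0.08 (95% interval -0.46 to 0.63, edgeR adjusted p = 0.827). This interval leaves room for a change of either sign. The log2 fold change of Cyfip2 minus that of Cyfip1 was -4.02. Cyfip2 was chosen for its fall in this comparison, so this gap is a description and tests nothing. Control replicate 1 decides the sign for Cyfip1: without it the log2 fold change was -0.16 (95% interval -0.24 to -0.07, edgeR adjusted p = 0.0102), so that Cyfip1 was then called lower, by a small amount.

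**Figure D1:**
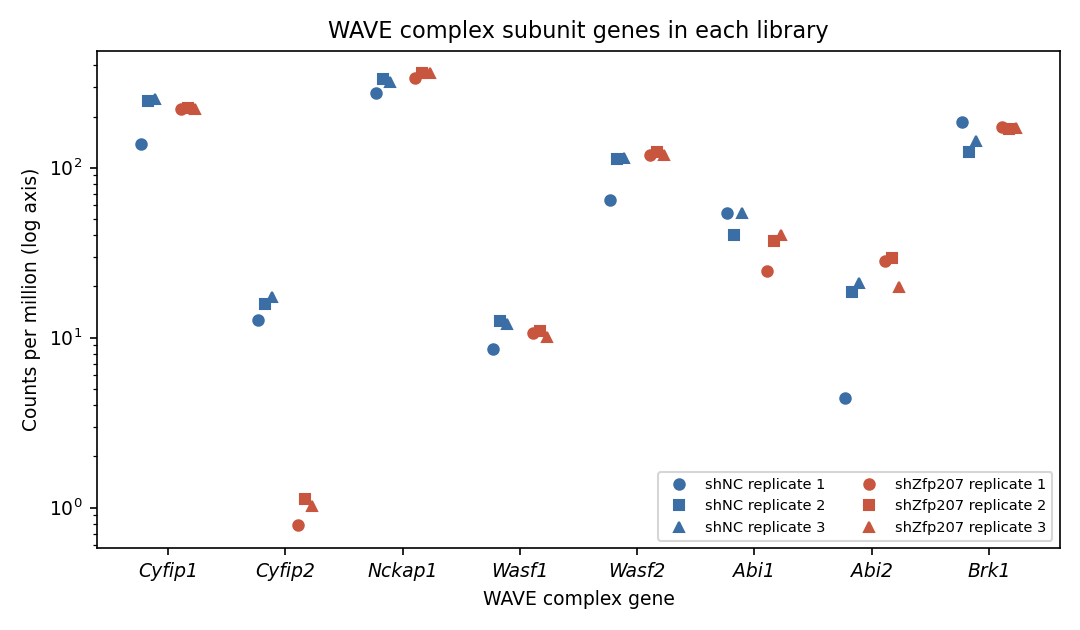
CPM (log axis) of the 8 tested WAVE complex genes in each of the 6 libraries, control in blue and knockdown in red, with a marker shape for each replicate number. Cyfip2 lies at 12.7 to 17.4 CPM in control and 0.788 to 1.13 CPM in knockdown libraries, while the groups of every other gene lie close together or overlap; Nckap1l and Wasf3 had too few counts to be shown.

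Counted per gene length, Cyfip1 was the main CYFIP transcript in both groups. The deposited FPKM values (fragments per kilobase and per 1000000 counted) put Cyfip1 at 8.89 to 16.4 and Cyfip2 at 1.20 to 1.64 in the control libraries. Cyfip2 therefore made up 11.9%, 8.59% and 9.13% of CYFIP FPKM in control and 0.515%, 0.731% and 0.67% in knockdown replicates 1 to 3, with means of 9.86% ± 1.76 and 0.639% ± 0.112 (SD, n = 3 each). Cyfip1 FPKM exceeded Cyfip2 FPKM by 7.43 to 10.6 times in control and by 135.7 to 193.3 times in knockdown libraries. The summed CYFIP FPKM differed little between the groups, at 15.2 ± 4.41 in control and 14.5 ± 0.0631 in knockdown cells (SD, n = 3 each), since Cyfip1 carried most of it. In control replicates 2 and 3 alone the sums were 17.4 and 18, above all knockdown sums of 14.5 to 14.6, and in control replicate 1 the sum was 10.1.

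The NCKAP subunit holds CYFIP in the complex, and here it came almost wholly from Nckap1. Nckap1 (chromosome 2, 80500512 to 80581380, minus strand) had 276.5, 331.3 and 319.3 CPM in control and 336.2, 359.1 and 358.4 CPM in knockdown replicates. All knockdown libraries lay above all controls, but by little, and the test did not pass (log2 fold change 0.20, 95% interval -0.06 to 0.45, edgeR adjusted p = 0.231). Nckap1l, the form of blood cells (chromosome 15, 103453825 to 103498800), had 1, 2 and 6 counts in control replicates and 0 in all 3 knockdown libraries, too few to test. These are 0.21 CPM over the control group, 6 of the 9 counts being from control replicate 3, and at most 0.0667 CPM over the knockdown group (3 counts, counting error only), and no fold is given at this depth. Of 15 marker genes of blood cells, Cd3e and Cd8a had 0 counts in every library and 11 had at most 10 counts in each. Their summed level was 15.7 to 19.3 CPM in control and 16 to 17.8 CPM in knockdown libraries, most of it from Cd68 at 12.8 to 17 CPM in control and 10.2 to 12.5 CPM in knockdown libraries. Single markers differed within that sum. Csf1r, a receptor of macrophages, had 2, 6 and 14 counts in control and 52, 48 and 45 in knockdown replicates, and Ptprc had 1, 1 and 0 against 8, 5 and 5, both opposite in direction to Nckap1l. The part of these cells in the Nckap1l counts was not tested.

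WASF subunits carry the domain that activates the Arp2/3 complex. Wasf2, the widely expressed form (chromosome 4, 133130505 to 133199756), had 64.4, 111.8 and 114.5 CPM in control and 118.7, 122.9 and 118.9 CPM in knockdown replicates. The groups did not overlap, yet control replicates 2 and 3 lay just below the knockdown libraries and replicate 1 far below them, and the test did not pass (log2 fold change 0.32, 95% interval -0.20 to 0.84, edgeR adjusted p = 0.338). Without control replicate 1 the log2 fold change was 0.09 (edgeR adjusted p = 0.122). Wasf1 (chromosome 10, 40883475 to 40938570), a form known from brain, had 8.63, 12.5 and 12 CPM in control and 10.7, 11 and 10.1 CPM in knockdown replicates. Its groups overlapped, and its log2 fold change was -0.05 (95% interval -0.47 to 0.37, edgeR adjusted p = 0.861). Wasf3 (chromosome 5, 146384985 to 146473615) had 0 counts in all 6 libraries, a count that allows at most 0.251 CPM in the shallowest library and 0.185 CPM in the deepest (3 counts, counting error only). Wasf2 gave 80.2% ± 2.05 of WASF FPKM in control and 84.3% ± 0.464 in knockdown cells (SD, n = 3 each).

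ABI subunits bind the WASF protein and link the complex to Abl kinases. The 2 main ABI genes had opposite signs, and neither passed. Abi1 (chromosome 2, 22940073 to 23040241, minus strand) had 53.8, 40.1 and 53.8 CPM in control and 24.7, 37.1 and 40.4 CPM in knockdown replicates. Its groups overlapped by a single pair of libraries, control replicate 2 and knockdown replicate 3 (log2 fold change -0.52, 95% interval -1.03 to -0.01, edgeR adjusted p = 0.136), and the antisense gene Pdss1 covers at most 4.81% of its exonic bases. Abi2 (chromosome 1, 60409619 to 60481158, plus strand) had 4.44, 18.4 and 20.9 CPM in control and 28.4, 29.3 and 20 CPM in knockdown replicates. Control replicate 1 stood far below the rest, and knockdown replicate 3 lay among the other controls. The log2 fold change was 0.82 (95% interval -0.37 to 2.02, edgeR adjusted p = 0.288), and 0.40 (edgeR adjusted p = 0.0875) without control replicate 1. Abi1 made up 93.1%, 71.5% and 74.5% of ABI FPKM in control and 49.9%, 59.1% and 69.3% in knockdown replicates, the third ABI gene, Abi3, having 1 to 5 counts per library. The highest knockdown share thus lay just below the lowest control share, and the shares spread widely within both groups.

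Brk1, the small subunit that ties the WASF and ABI helices together (chromosome 6, 113604772 to 113616951, plus strand), had 184.9, 123.9 and 143.1 CPM in control and 173.2, 168.8 and 170.1 CPM in knockdown replicates. The knockdown libraries lay between control replicate 1, the highest, and the other controls. The log2 fold change was 0.20 (95% interval -0.15 to 0.54, edgeR adjusted p = 0.387). Without control replicate 1 it was 0.36 (edgeR adjusted p = 0.00291), and Brk1 was then called higher.

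**Figure D2:**
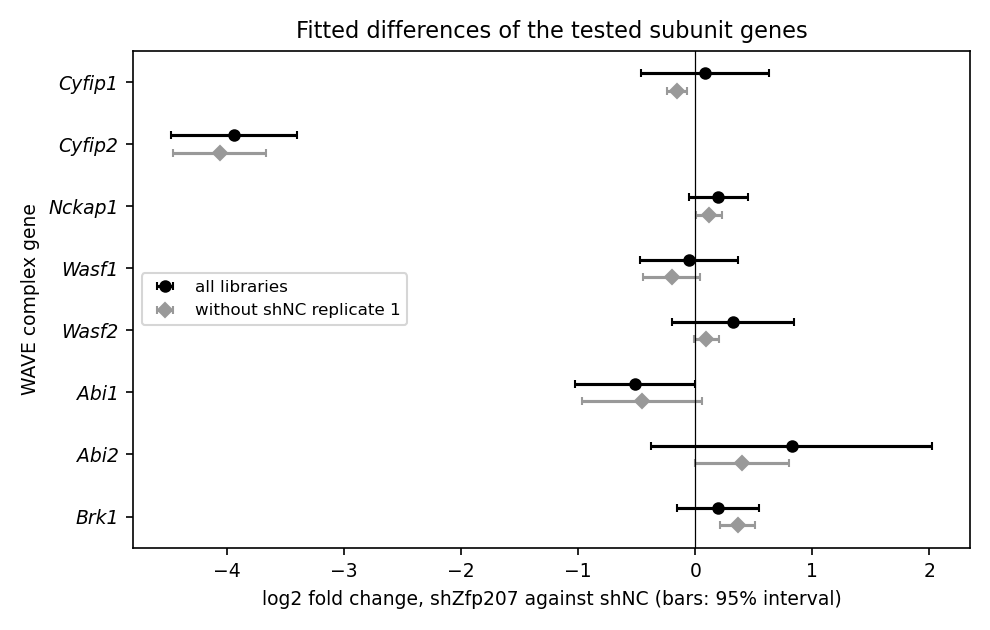
Log2 fold change of knockdown against control for the 8 tested WAVE complex genes, with 95% intervals, from the fit to all libraries (black circles) and the fit without control replicate 1 (grey diamonds). Cyfip2 lies near -4 in both fits and the other genes between -0.52 and 0.82, and Cyfip1 changes sign between the fits.

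Across the tested members, 1 of 8 was called lower, Cyfip2, and 0 were called higher, against 10.7% and 9.92% of all genes tested. An unadjusted p under 0.05 was reached by 0 higher and 2 lower members, Abi1 being the second, and DESeq2 and limma-voom called the same numbers as edgeR. Since Cyfip2 was chosen from this comparison, nothing is read from the count. All 3 knockdown libraries lay above all controls at 2 of the 8, against 21.5% of all genes tested, below them at 1, against 23.4%, and the groups overlapped at 5. The median log2 fold change of the 8 members was 0.14, beside -0.03 over all genes tested. Without control replicate 1 the count was 2 lower, Cyfip1 and Cyfip2, and 1 higher, Brk1, when 26.1% of all genes tested were lower and 26.1% higher, 52.1% in all.

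Control replicate 1 stood apart from the other libraries, and several members moved with it. Its share of counts from mitochondrially encoded genes was 10.5%, against 2.67% to 2.89% in the other controls and 5.61% to 6% in the knockdown libraries. Library totals were 11933736 counts in control replicate 1 and up to 16248346 counts elsewhere. On the log2 CPM scale the members in control replicate 1 differed from the mean of control replicates 2 and 3 by -2.13 for Abi2, -0.88 for Cyfip1, -0.83 for Wasf2, -0.51 for Wasf1, -0.40 for Cyfip2, -0.25 for Nckap1, 0.19 for Abi1 and 0.46 for Brk1. Over all genes tested, this difference had a median of 0.19 in the third with the shortest lengths and -0.14 in the third with the longest. Lengths here are those behind the deposited FPKM. Brk1, the shortest member on both these and the GENCODE exonic lengths (1098 and 1095 bases), was the member most raised in control replicate 1. Abi2, the most lowered, is the longest by the first (19353 bases) and shorter than Cyfip1 by the second (8543 against 11941 bases). Other members did not follow length. Abi1, with 16383 bases by the first and 4032 by the second, differed by 0.19. Wasf1, with 3787 and 2854 bases, differed by -0.51. The part of this library's state in the members' differences was not tested beyond leaving it out.

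The order of the members' levels per length in control cells was Brk1, Nckap1, Cyfip1, Wasf2, Abi1, Wasf1, Cyfip2, Abi2, Nckap1l and Wasf3. Mean FPKM was 137.2 for Brk1, 44.7 for Nckap1, 13.7 for Cyfip1, 12.1 for Wasf2, 3.01 for Abi1, 2.91 for Wasf1, 1.45 for Cyfip2 and 0.754 for Abi2. Over the control libraries the ranges of Cyfip1 and Wasf2 overlapped, at 8.89 to 16.4 and 8.04 to 14.3, as did those of Abi1 and Wasf1, at 2.45 to 3.28 and 2.28 to 3.29, while Cyfip2 at 1.20 to 1.64 and Abi2 at 0.23 to 1.08 did not. In knockdown cells Cyfip2, at 0.0745 to 0.107 FPKM, lay below Abi2, at 1.03 to 1.51. These levels rest on the gene lengths behind the deposited FPKM, which were 4.06 times the GENCODE exonic length for Abi1, 2.27 times for Abi2 and 1.00 to 1.49 times for Brk1, Wasf2, Cyfip1, Wasf1, Nckap1 and Cyfip2. With the GENCODE lengths Abi1 had 12.2 CPM per kilobase in control cells, near Wasf2 at 15.5 and Cyfip1 at 17.7, and the order was the same, but Cyfip2 at 1.78 to 2.44 and Abi2 at 0.52 to 2.45 then overlapped.

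**Figure D3:**
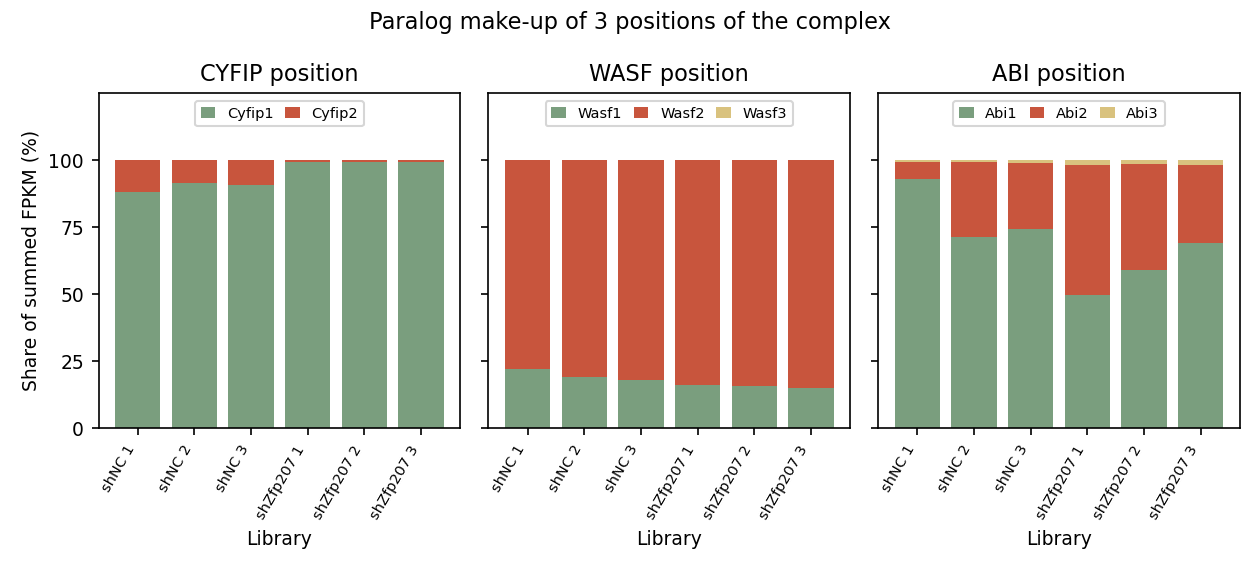
Share of the summed FPKM (percent) that each paralog gives to the CYFIP, WASF and ABI positions of the complex, as stacked bars for each of the 6 libraries. The Cyfip2 part shrinks from 8.59% to 11.9% in control to 0.515% to 0.731% in knockdown libraries, Wasf2 leads its position throughout, and the Abi1 part ranges from 49.9% to 93.1%.

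The genes next to Cyfip2 did not share its difference in size. The nearest tested gene, Med7, a subunit of the Mediator complex 124.1 kb away, fell from 19.1 ± 0.646 to 14 ± 1.43 CPM (SD, n = 3 each, log2 fold change -0.44, edgeR adjusted p = 0.0457), and its call was kept in 1 of the 6 fits that left out a library. A gene antisense to Med7 covers at most 21.2% of its exonic bases. On the other side Gm12166 and Thg1l had log2 fold changes of -0.24 and -0.02 (edgeR adjusted p of 0.603 and 0.976). Of the 30 genes within 1000000 bases of the Cyfip2 start, 21 had no count in any library and 6, Cyfip2 included, were tested. Besides Cyfip2 and Med7, Lsm11, named after its values were seen, passed and was higher (log2 fold change 0.64, edgeR adjusted p = 0.0212). Beside Cyfip1, Tubgcp5 and Nipa2 had log2 fold changes of -0.28 and 0.21 (edgeR adjusted p of 0.199 and 0.168). The second tested neighbours further out, Gnb2l1 beyond Med7 and Gas2 and Herc2 around Cyfip1, had log2 fold changes of 0.12, -0.48 and 0.83. Their edgeR adjusted p were 0.6, 0.338 and 0.139. Without control replicate 1, Gnb2l1, Herc2 and Nipa2 were called higher, when 26.1% of all genes tested were (edgeR adjusted p of 0.0171, 0.000433 and 0.0122). Gm12166, Thg1l, Tubgcp5 and Gas2 were not called in that fit.

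The 5 genes whose profile over the 6 libraries was most like that of Cyfip2 were Chchd10, Pmp22, Padi4, Chad and Crisp1. Likeness was the root mean square difference of log2 CPM after each gene was centred on its own mean, and it was 0.435, 0.469, 0.497, 0.534 and 0.612 in that order among 10226 genes compared, fewer than the 10883 ranked above because predicted genes and pseudogenes were left out. Of these, Chchd10 encodes a mitochondrial intermembrane space protein, Pmp22 a myelin protein, Padi4 a peptidylarginine deiminase and Chad a cartilage matrix protein. For all 5, no knockdown library reached the lowest control, and the knockdown mean was 8.17% to 13.1% of the control mean, as the measure of likeness selects. None is a subunit of the WAVE complex or belongs to the lists of actin genes described next.

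Around the complex, genes that act on Rac or on actin were read against the shares of all genes tested, 9.92% higher and 10.7% lower with all libraries and 26.1% in each direction without control replicate 1. Of 33 genes of guanine nucleotide exchange factors (GEFs), which load Rac and its relatives with GTP, and their ELMO partners, 25 were tested, with 4 called higher and 0 lower. At an unadjusted p under 0.05 there were 7 higher and 2 lower, and adjusted calls were 7 and 0 with DESeq2 and 4 and 0 with limma-voom. Dock5 had 22.8, 23.7 and 28.3 CPM in control and 66.7, 61.4 and 57.4 CPM in knockdown replicates, more than doubling in every knockdown library (log2 fold change 1.32, SE 0.123, edgeR adjusted p = 0.00282). Vav2 rose from 24.7 ± 1.74 to 46.7 ± 2.68 CPM (SD, n = 3 each, log2 fold change 0.92, edgeR adjusted p = 0.00416). The ELMO gene Elmo3 rose by 0.78 on the log2 scale. Dock5 and Vav2 were called in all 6 fits that left out a library, while Elmo3 kept its call in 2 of these fits. The list's median was 0.08, and without control replicate 1 it had 8 higher and 8 lower members of 25. With upper-quartile scaling 1 member was called lower.

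Among 10 tested GTPase-activating proteins for Rac (GAPs), which switch it off, 1 was higher and 1 lower. Srgap1, a GAP with a membrane-bending domain, had 1 count in all control libraries together and 54 in all knockdown libraries, 17 to 19 in each. Scaled by library totals, the ratio was 51.4, and counting error alone gives it an exact 95% interval of 8.84 to 2067. The 1 control count came from control replicate 1. Chn2, the chimaerin gene, fell from 51.7 ± 10.9 to 32.8 ± 0.898 CPM (SD, n = 3 each, log2 fold change -0.66, edgeR adjusted p = 0.0315) and kept its call in 2 of the 6 fits, and antisense genes cover at most 10.6% of its exonic bases. The list's median was 0.18.

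Of 25 genes of GTPases and adaptors that act on WAVE, 21 were tested, with 0 higher and 2 lower in edgeR and a median of -0.20, a share of lower calls near that of all genes. At an unadjusted p under 0.05, 1 was higher and 5 lower, and adjusted calls were 1 and 2 with DESeq2 and 0 and 2 with limma-voom. Arl1, an Arf-like GTPase of the Golgi, and Rhoq fell by 0.52 and 0.51 in log2 units, with edgeR adjusted p of 0.0114 and 0.031 and calls kept in 3 and 1 of the 6 fits. Rac1, the GTPase that binds CYFIP, lies outside the naming rule and was chosen after its values were seen. It had 518.4, 574.6 and 559.8 CPM in control and 590.5, 246.2 and 597.8 CPM in knockdown replicates, so knockdown replicate 2 lay far below all other libraries, and the edgeR adjusted p was 0.706 (log2 fold change -0.19, SE 0.319). The antisense gene Daglb covers at most 51.4% of its exonic bases. Without control replicate 1 the list had 4 higher and 9 lower members, where all genes had 26.1% in each direction.

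The Arp2/3 complex, the target of WAVE, had 9 tested subunits of 10, and 0 passed in edgeR. At an unadjusted p under 0.05, 1 was higher and 0 lower, and DESeq2 and limma-voom also called 1 and 0. It was Arpc1a in each case, named after its values were seen (log2 fold change 0.58, edgeR adjusted p = 0.0586). Their median log2 fold change was -0.10, with a range from -0.23 to 0.58. The most abundant, Arpc2, had 493 ± 32.6 and 453.3 ± 9.28 CPM in control and knockdown cells (SD, n = 3 each, log2 fold change -0.12, edgeR adjusted p = 0.398). Leaving out control replicate 1 gave 2 higher and 1 lower. Of 12 tested genes of other Arp2/3 activators and their partners, 0 were higher and 2 lower in edgeR. An unadjusted p under 0.05 gave 1 higher and 3 lower, DESeq2 the same counts and limma-voom 0 and 2. The edgeR calls were subunits of the WASH complex, which acts on endosomes, Washc2 (listed as Fam21) and Washc5 (listed as E430025E21Rik), which fell by 0.59 and 0.39 on the log2 scale and kept their calls in 3 and 1 of the 6 fits. Of 9 tested genes that oppose Arp2/3 or take branches apart, 2 were higher and 2 lower. Arpin, which inhibits Arp2/3, rose from 29.2 ± 2.26 to 44.3 ± 1.34 CPM (SD, n = 3 each, log2 fold change 0.60, edgeR adjusted p = 0.0107), and the coronin gene Coro2b rose by 0.90. Coro7 and Pick1 fell by 0.55 and 0.52 on the log2 scale. At most 18.6% of the exonic bases of Pick1 are shared with Gm49486, which lies on the same strand. Each of the 4 called genes lost its call in at least 3 of the 6 fits.

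Among 31 tested genes of actin filament assembly and turnover, 4 were higher and 2 lower. Enah, an Ena/VASP protein that extends filament ends, had 3, 3 and 8 counts in control and 35, 40 and 31 in knockdown replicates (edgeR adjusted p = 0.00598, log2 fold change 2.84, SE 0.381). Every knockdown library was several-fold above every control library, at a low level. Cfl1, the filament-severing protein cofilin, had 851.7, 1089 and 1146 CPM in control and 483, 460.6 and 468.2 CPM in knockdown replicates (edgeR adjusted p = 0.00504, log2 fold change -1.12, SE 0.138), and at most 16.5% of its exonic bases are shared with Snx32, which is antisense to it. Ssh2, a phosphatase that activates cofilin, rose by 0.64 and Carmil1 (listed as Lrrc16a), which acts on capping protein, by 0.62 on the log2 scale. The other calls, outside the naming rule, were Pfn1, which binds actin monomers, lower by -0.39, and the formin gene Fhod3, higher by 0.50 on the log2 scale. Enah and Cfl1 were called in all 6 fits that left out a library, and Ssh2 and Carmil1 kept theirs in 2 of the 6 fits. Pfn1 and Fhod3 were not called in the fits that left out control replicate 2, control replicate 3 or any knockdown replicate. The list's median was 0.08, and -0.08 without control replicate 1, with 11 higher and 11 lower members. Of 2 tested actin genes, 0 passed in edgeR, DESeq2 or limma-voom and 1 was lower at an unadjusted p under 0.05, and Actb, the more abundant, had a log2 fold change of -0.29 (edgeR adjusted p = 0.412).

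The 9 genes listed for links to FMRP, to cap binding or to CYFIP were all tested, and 0 passed in edgeR, with a median within 0.01 of 0. At an unadjusted p under 0.05, 1 was higher and 2 lower, the same counts as DESeq2 gave, while limma-voom called 0. Caprin1, the most abundant of them, had a log2 fold change of -0.06 (edgeR adjusted p = 0.815). Leaving out control replicate 1 gave 2 higher and 3 lower, and with upper-quartile scaling 2 were lower. Caprin1 was among the lower genes without control replicate 1 (log2 fold change -0.20, edgeR adjusted p = 0.00818). Of 16 genes, the p53 gene Trp53 and targets of p53, 1 was higher and 0 lower, where all genes had 9.92% and 10.7%. The list's median was 0.20. At an unadjusted p under 0.05, 2 were higher and 1 lower, while DESeq2 called 2 and 0 and limma-voom 1 and 0. Eda2r rose from 53.2 ± 11.9 to 93 ± 3 CPM (SD, n = 3 each, log2 fold change 0.81, edgeR adjusted p = 0.0198), a call kept in 2 of the 6 fits, and without control replicate 1 the list had 8 higher members and 1 lower, where all genes had 26.1% in each direction.

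**Figure D4:**
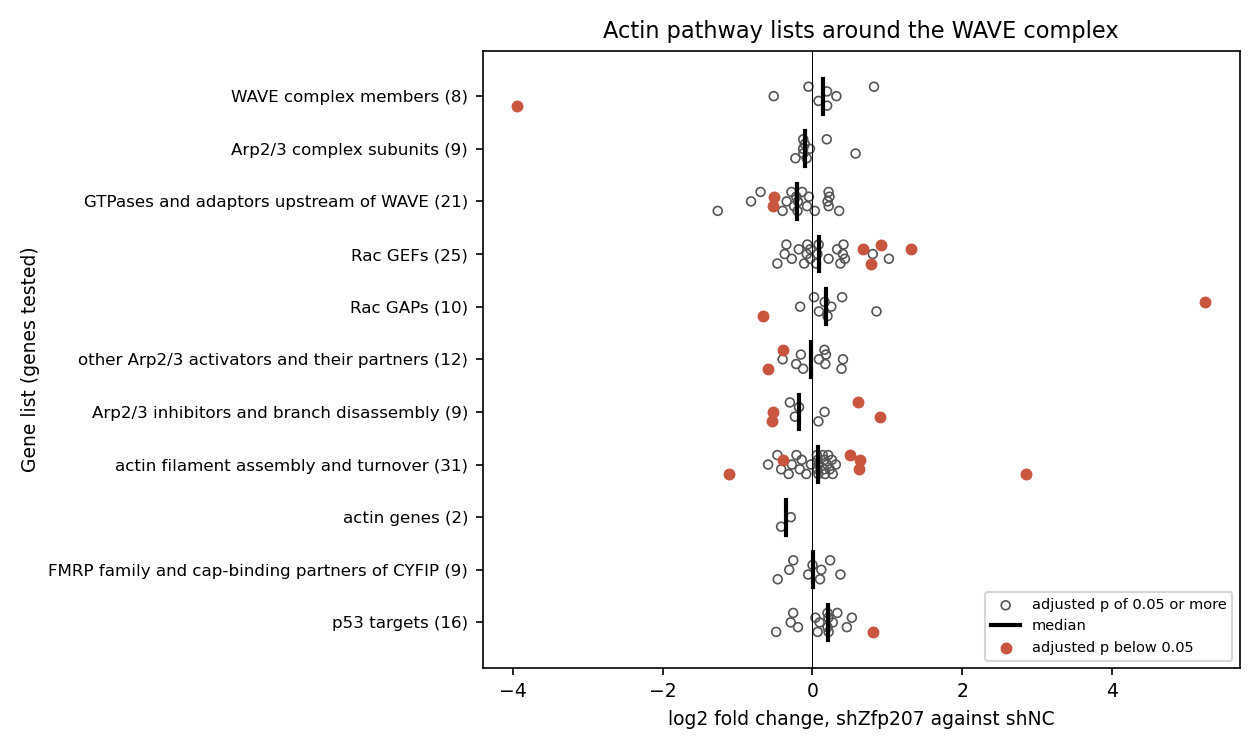
Log2 fold change of knockdown against control for each tested gene of the WAVE complex and of 10 lists around it, with genes past the threshold (edgeR adjusted p below 0.05) filled and list medians as bars. Cyfip2 at -3.94 on the left and Srgap1 and Enah (2.84) on the right lie farthest out, and the list medians lie between -0.35 and 0.20.

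Markers were checked for the cells these libraries should and should not hold. The hepatoma genes Alb and Afp were at 523.9 to 1206 and 741.7 to 936.9 CPM in control libraries and at 2247 to 2379 and 1775 to 1960 CPM in knockdown libraries. All 10 hepatocyte and hepatoma markers together reached 2630 to 3624 CPM in control and 5478 to 5801 CPM in knockdown libraries. Of 9 neuronal markers, Gad1, Snap25 and Syn1 were at 0 throughout, and the sum was 0.492 to 1.26 CPM in control and 0.197 to 0.531 CPM in knockdown libraries. Map2 had 2, 9 and 3 counts and Slc17a7 had 7, 1 and 4 in control replicates. Both had 0 in all 3 knockdown libraries and so were lower together with Cyfip2. The other neuronal markers with counts were not lower. Over the control and the knockdown group Tubb3 had 6 and 6 counts, Syt1 1 and 6, Nefl 0 and 2, and Rbfox3 0 and 1. The part of such cells in the Cyfip2 difference was not tested. The 7 endothelial markers summed to 0.617 to 1.76 CPM in control and 1.64 to 2.05 CPM in knockdown libraries. Those of fibroblasts and stellate cells summed to 2046 to 2310 CPM in control and 2702 to 2785 CPM in knockdown libraries. Nearly all of this came from Dcn (log2 fold change 0.33, edgeR adjusted p = 0.0968), with Thy1 at 0. Pdgfra went the other way and was called lower (log2 fold change -0.54, edgeR adjusted p = 0.0181).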

How the data were processed

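Messenger RNA was measured in 6 libraries of Hepa1-6 cells. The authors deposited whole-number read counts per gene and FPKM values, with HISAT2 2.0.5, featureCounts 1.5.0-p3 and build mm10 named by the submitters' processing notes without roles. The notes used here name no annotation, strand setting or filter. Dividing deposited counts by FPKM gave each of 8801 well-counted genes the same length in all libraries within 0.0223%. Washc and a few other genes were found by gene identifier under older symbols, and exonic lengths, overlaps and transcripts came from GENCODE M21 (GRCm38, as mm10).

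The test on counts was edgeR's (4.0.16, R 4.3.3, filterByExpr, TMM scaling, quasi-likelihood test with group as the only term, two-sided, Benjamini-Hochberg over all 11975 genes, threshold 0.05), a procedure tested on simulated data. The simulated data had fewer changed genes and no library standing apart as control replicate 1 does, so they cannot show how the test behaves with that library. The SE is the log2 fold change over the square root of F. Group means ± SD are TMM-scaled CPM. Counting intervals are exact at 95%.

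The members and the 10 lists around them were chosen with earlier results of these data known. Named were all members, Zfp207, up to 4 called genes with the smallest p per list or its most abundant gene where none passed, the 2 nearest tested genes on each side of Cyfip2 and Cyfip1, and the 5 genes most like Cyfip2 (mean of at least 2 CPM, no predicted genes or pseudogenes, prior count 2). A gene that the rule selects is not reported here. Alternatives were RLE and upper-quartile scaling, other filters, DESeq2 1.42.0, limma-voom 3.58.1, a replicate block, other lengths and leaving out each library.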

Additional observations from a re-analysis of the deposited data

How the results depend on the processing

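With DESeq2, limma-voom, looser and stricter filters, upper-quartile scaling and RLE scaling, 1 member was lower and 0 higher, as with all libraries in edgeR. The lower member was Cyfip2 each time, and since it was chosen from this comparison nothing is read from its repeated call. With each library left out 1 to 2 were lower and 0 to 1 higher, and the count over all genes, 2466, ran from 534 to 6313. The replicate block, in which libraries with the same number in their titles were paired, gave 987 genes. The numbers are not stated to pair the samples. Deviations from the group means correlated at -0.008, 0.00771 and 0.0527 for numbers 1 to 3. Such small correlations cannot tell whether libraries of the same number shared a culture or batch. Under the block 1 member was lower, again Cyfip2, and 0 higher.

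Of 104 refits of the members' log2 fold changes, 3 changed sign. These were Cyfip1 without control replicate 1 (range over the fits with a library left out -0.16 to 0.23) and Wasf1 without control replicate 2 (0.048) and 3 (0.013), with a range of -0.20 to 0.048. Outside the members, Caprin1 changed sign without control replicate 2 (range -0.20 to 0.044) and Gm12166 without control replicate 1 (-0.49 to 0.022). Thg1l did so with limma-voom (0.058), with the replicate block (0.020), without control replicate 1 and without knockdown replicates 2 and 3 (-0.21 to 0.35). All these were uncalled with all libraries, and the cause was not tested. Of 260 list counts, 75 moved by more than 1.5 times.

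The Cyfip2 share of CYFIP transcripts was 11.2% in control and 0.734% in knockdown cells with GENCODE lengths. Raw counts, which leave out gene length by construction, gave 6.97% and 0.438%. Leaving out a library gave 8.86% to 10.5% and 0.592% to 0.701%. At these depths Nckap1l and Wasf3 could not be tested.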
